A study of Arabidopsis thaliana with 2 samples.

Results

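NAC proteins are plant transcription factors that bind DNA through a conserved N-terminal domain, often as dimers with each other. Some of their known sites hold a short core around CACG or its complement CGTG, while others do not. The site of ATAF1 was not examined here. The family holds its own regulators, since NAC proteins are known to act on promoters of other NAC genes in drought, senescence and development. ATAF1 is a NAC factor of Arabidopsis thaliana that is induced by drought, wounding and the hormone abscisic acid. The 4 genes described here, ANAC019, FEZ, NTL8 and ANAC102, are the NAC genes that a deposited list of ATAF1-HA binding regions names on the gene's own chromosome, either under a peak or as the gene next to one. They were found by looking up locus, symbol and synonyms in the list's overlap and neighbour columns, and they account for 4 peaks of 439. ANAC019, FEZ and NTL8 were named under a peak, and ANAC102 beside one.

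Chromatin was precipitated with an antibody against the HA tag from rosettes of 35S:ATAF1-HA plants and of wild-type plants, both Col-0, with 1 library per genotype. Plants of both genotypes were 5 weeks old and had been kept under 8 h of light per day at 21 °C. The 35S promoter drives expression in most plant tissues, so the tagged protein was not under the ATAF1 promoter, and the labels do not say from how many independent lines the plants came. Wild-type plants carried no HA tag, and how their library entered the peak list is not stated. Reads are given once per peak without naming the library, the depth of either library is unknown, and there was no replicate, so no difference between ATAF1-HA and wild-type plants could be tested. A peak list holds no expression values, so the rosette label could not be set against marker genes. The 4 genes were chosen by their presence in this list of measured peaks, so that presence, with the reads and scores that put a peak on the list, is given as a description.

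The peak on ANAC019 (AT1G52890, NAC019 in RefSeq) was the strongest of the 4. ANAC019 is a stress-responsive NAC factor of the SNAC-A group, to which ATAF1 itself belongs, and it is known for roles in drought tolerance and in jasmonate-linked defence. Its peak lay at chromosome 1, 19697917 to 19697935 (TAIR 9), spanned 18 bp and held 612 reads, 358 of them forward and 254 reverse. The median peak of the whole list held 215 reads, so the ANAC019 peak carried 2.85 times that number. As many reads or more were found in 3.64% of all peaks. Among the 291 peaks on protein-coding genes, those on AT5G10340 (2630 reads), the chloroplast protein export gene SECA2 (883), the SUMO ligase gene SIZ1 (769) and AT4G01985 (657) had more. The authors' false discovery rate (FDR), a percent per peak, was 2.67e-05, against a median of 0.948 in the list, and their p-value was written as 0. No other peak had a read count within 5% of 612, so by that limit none could be set beside it. Of the 439 peaks, that on ANAC019 stood at rank 16 by reads and 17 by FDR.

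The peak on FEZ (AT1G26870) was the next in reads. FEZ promotes the divisions of root cap stem cells that renew the root cap, a role described in roots, while the chromatin here came from rosettes. The peak lay at chromosome 1, 9314459 to 9314494, spanned 35 bp and held 382 reads, 166 forward and 216 reverse, which was 1.78 times the list's median. Its FDR was 0.0150% and its p-value was written as 0. Of 16 other peaks within 5% of its reads, 14 had a higher FDR than FEZ, 1 had a lower one and their median was 0.105%. The remaining one, on AT5G22200, matched FEZ in reads (382) and FDR (0.0150%) with the strands turned round, at 215 forward and 167 reverse. The list gives AT1G26880 as the gene on the 3' side of the FEZ peak, at 888 bp.

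The peak on NTL8 (AT2G27300) differed in listed length from the other 3. NTL8 is a NAC factor that is anchored in a membrane and freed by proteolysis, and it is known for roles in salt-regulated germination and flowering. Its peak lay at chromosome 2, 11681552 to 11681860 and spanned 308 bp, which was 7.33 times the length of the next longest of the 4 and 7.7 times the list's median of 40 bp. As long or longer were 13 peaks of the list, itself included, or 2.96%. It held 292 reads, 114 forward and 178 reverse, or 1.36 times the median number. Per bp of its span, both end positions counted, that came to 0.945 reads, against 32.2 for ANAC019, 10.6 for FEZ and 3.53 for the peak beside ANAC102. The listed length need not be the stretch that held the reads, since a peak listed at 0 bp held 343 reads. Reads per bp thus depend largely on the listed length.

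The authors' FDR for the NTL8 peak was high for its number of reads. Its FDR was 1.24%, and 28 of 31 other peaks within 5% of its reads had a lower one (median 0.0390%). The other peaks with exactly 292 reads, on the RNA-binding protein gene ATRBP45C (AT4G27000) and on a region without a named gene, were 48 and 47 bp long and both had an FDR of 0.0114%. The 8 other peaks with the same FDR as NTL8 held 141 to 224 reads, all fewer than NTL8. Its p-value was written as 1, which placed it among the 24 peaks (5.47% of the list) above 0.05. Among these 24, a peak with 141 reads had an FDR of 4.85%. Others held 6061 reads, the most in the list, at 5.24e-99%, 1859 at 2.14e-68% and 1376 at 2.18e-124%. A p-value above 0.05 thus did not by itself mark a peak with few reads or a high FDR. No source used here says what this p-value tests.

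A p-value of 1 was given for 14 peaks of the list, 4 of them on protein-coding genes, and NTL8 was the long one among these 4. The other 3, on the GTPase gene RABA4B, AT5G24390 and AT5G52430, were 2, 0 and 1 bp long with 227, 204 and 247 reads. Among the 11 peaks of 150 bp or more on protein-coding genes, 2 had a p-value above 0.05, that on NTL8 and that on the trichome bHLH gene EGL3 (0.599). The 20 peaks of this length in the whole list (4.56%) had a median of 385 reads and a median FDR of 0.208%. In 5 of these 20 the p-value was above 0.05, among them peaks of 759, 536 and 154 bp not on a protein-coding gene. These long peaks were set beside NTL8 after its values were seen.

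**Figure D1:**
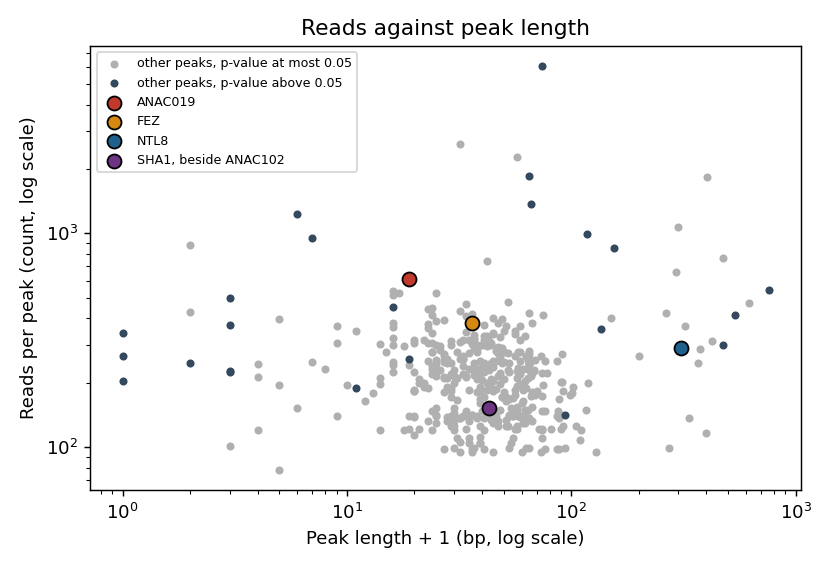
Reads per peak against peak length plus 1 bp, both on log scales, for the 439 peaks, with the 4 NAC peaks in colour and the other peaks with a p-value above 0.05 in dark grey-blue. NTL8, at 308 bp and 292 reads, sits to the right of the main cloud, while ANAC019, at 18 bp and 612 reads, sits above it.

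ANAC102 (AT5G63790, NAC102 in RefSeq) was not overlapped by a peak. It is a SNAC-A gene close in sequence to ATAF1 and known from germination under low oxygen. The list gives it as the gene on the 3' side, 725 bp away, of a peak at chromosome 5, 25525741 to 25525783, which overlapped SHA1 (AT5G63780), a gene named for arrest of the shoot apical meristem. That peak spanned 42 bp and held 152 reads, 67 forward and 85 reverse, which was 0.707 times the list's median. As many reads or more were found in 70.6% of all peaks. Its FDR was 1.20%, above the list's median of 0.948%, and its p-value was written as 0.

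The peak on SHA1 beside ANAC102 was thus the weakest of the 4 by reads, and ANAC019 held 4.03 times as many. Peaks of its size were common. Of 24 other peaks within 5% of its reads, 16 had a lower FDR, 5 a higher one and 3 the same. With exactly 152 reads there were 4 others, among them the peak on MYB116, at an FDR of 1.20% in 3 and 3.05% in the fourth. The list does not say to which of the genes SHA1 and ANAC102 the signal belongs.

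**Figure D2:**
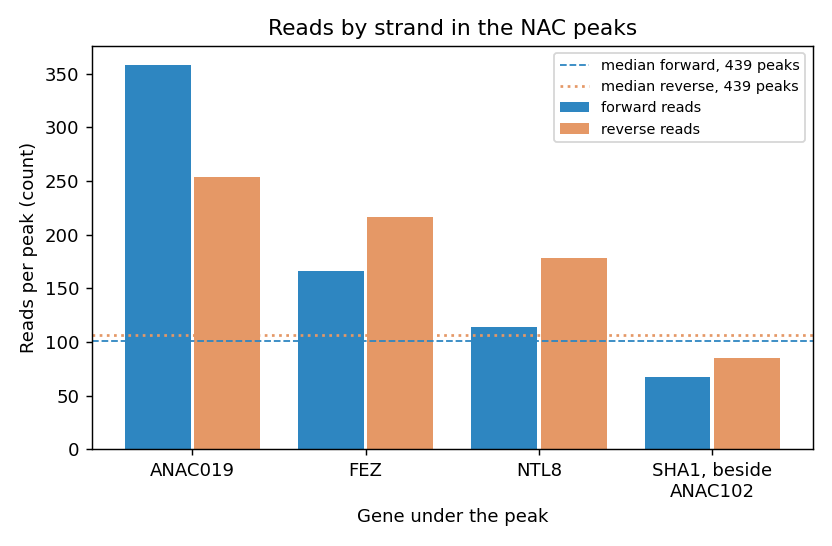
Forward and reverse reads of the 4 NAC peaks, with dashed and dotted lines at the medians of the 439 peaks (101 forward and 106 reverse reads). ANAC019 is the one of the 4 with more forward than reverse reads, and the peak on SHA1 beside ANAC102 is the one below both medians.

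Reads from either side of a bound site fall on opposite strands, and the split was uneven to different degrees in the 4 peaks. The forward share was 58.5% for ANAC019 (Wilson 95% interval 54.6 to 62.3), 43.5% for FEZ (38.6 to 48.5), 39.0% for NTL8 (33.6 to 44.7) and 44.1% for the peak beside ANAC102 (36.4 to 52.0). ANAC019 thus lay above 50%, FEZ and NTL8 lay below it, and the interval of the peak beside ANAC102 held it. An interval wholly on one side of 50% was found in 57.6% of all peaks, 24.1% above and 33.5% below, so 3 of the 4 NAC peaks shared this with most of the list. The median forward share of the list was 48.7%. The deposited strand difference was 0.170 for ANAC019, 0.131 for FEZ, 0.219 for NTL8 and 0.118 beside ANAC102, against a median of 0.165. A difference as large as that of NTL8 was found in 34.4% of peaks. These intervals cover counting error only, since reads from the same amplified molecule are not independent.

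**Figure D3:**
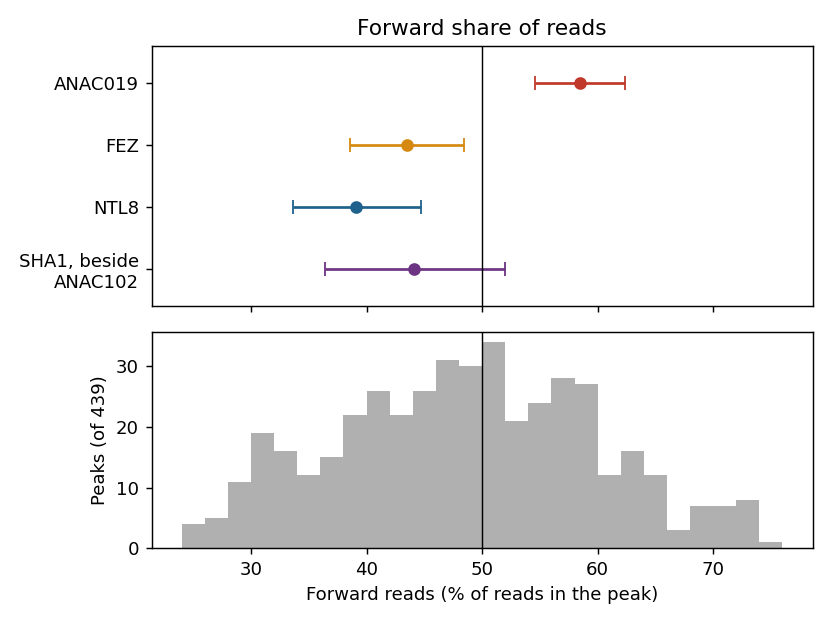
Upper panel, forward reads as a percent of the reads in each of the 4 NAC peaks, with Wilson 95% intervals as bars; lower panel, the same percent in all 439 peaks as a histogram in steps of 2 percentage points. ANAC019 (58.5%) lies to the right of the line at 50%, FEZ (43.5%) and NTL8 (39.0%) lie to its left, and all 4 lie inside the body of the histogram.

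Where each peak stood in the list depended on the quantity used to order it. Ordered by p-value and then by reads, ANAC019 was at rank 3, FEZ at 25, the peak beside ANAC102 at 264 and NTL8 at 433 of 439. This order sets the 373 peaks with a p-value of exactly 0 above all others, whatever their reads or FDR. The peak with the most reads of the list (6061, p-value 0.999994) thus came below all 373. Ordered by FDR, the 4 NAC peaks were at 17, 43, 262 and 274, with the same sequence of genes. By reads alone ANAC019 was at 16, FEZ at 44, NTL8 at 103 and the peak beside ANAC102 at 306. ANAC019 came first and FEZ next in every one of the 4 orders, including reads per bp (26 and 82), while NTL8 and the peak beside ANAC102 changed places. The 4 orders are not independent, since read counts enter each of them. Of the 4 peaks, 2 had an FDR under 1% (ANAC019 and FEZ), against 51.5% of all peaks, and 3 had a p-value of 0, against 85% of all peaks.

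**Figure D4:**
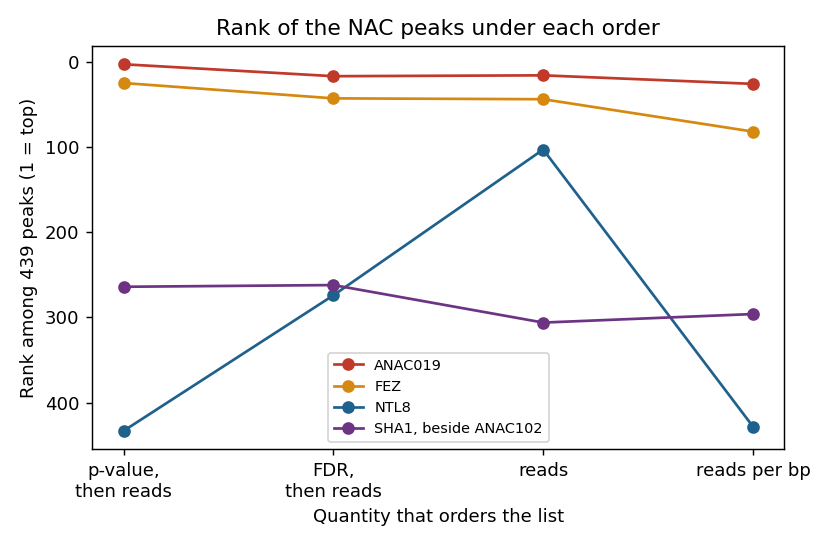
Rank of each NAC peak among 439 (1 at the top) when the list is ordered by p-value and then reads, by FDR and then reads, by reads, and by reads per bp of the peak. ANAC019 (ranks 3 to 26) and FEZ (25 to 82) stay in the upper part of the list, NTL8 runs from 103 to 433, and the peak beside ANAC102 runs from 262 to 306.

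**Figure D5:**
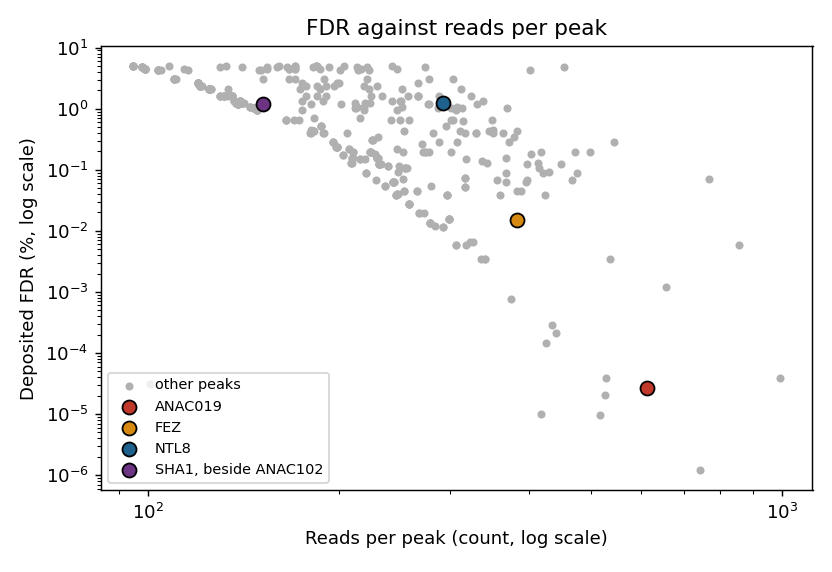
Deposited FDR in percent against reads per peak, both on log scales, with the 4 NAC peaks in colour; 12 peaks with an FDR of 1e-08% or less are not drawn. The peak beside ANAC102 (152 reads, 1.20%) lies along the lower edge of the cloud and NTL8 (292 reads, 1.24%) lies well above that edge.

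The rest of the NAC family was looked up in the same way. Of 101 NAC genes, 100 matched by a numbered NAC symbol or synonym in RefSeq and the other, NTL9, taken from the membrane-bound group, 3 were named in the overlap column (2.97%), where 1.05% of the 27444 nuclear protein-coding genes were named. With genes named as neighbours counted too, there were 4 NAC genes (3.96%), against 1.18% of all protein-coding genes within 1000 bp and 1.34% within 3000 bp. Overlap counted over peaks with an FDR under 1% left ANAC019 and FEZ, 2 of 101 (1.98%), against 0.496% of all protein-coding genes. The same 2 were left over peaks with a p-value of at most 0.05, against 1.03%. The other 97 NAC genes were not named in any gene column at any distance, a setting for which the share of all genes was not computed. No test was made on these counts, since the genes were chosen for being named.

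By group, the stress-related SNAC-A genes had ANAC019 overlapped and ANAC102 named as a neighbour, out of 7. The other 5, ATAF1 (AT1G01720), ATAF2, ANAC032, ANAC055 and ANAC072, the last also known as RD26, were not named. ATAF1, the gene of the precipitated factor, thus had no peak assigned to it in the list. Of 4 genes of the root cap group, FEZ was overlapped, while SMB, which acts with FEZ in the root cap, and the related BRN1 and BRN2 were not named. Of 13 membrane-bound NAC genes, NTL8 was overlapped and the other 12 were not named, among them NTL9, NTM1, ANAC013 and ANAC017. By chromosome, 2 of 32 NAC genes were named on chromosome 1, which held 99 peaks, 1 of 8 on chromosome 2 (82 peaks) and 1 of 28 on chromosome 5 (105 peaks). None of 22 was named on chromosome 3 (90 peaks) and none of 11 on chromosome 4 (63 peaks). Over the whole genome, 1.05% of protein-coding genes were named in the overlap column, and 1.18% with neighbours within 1000 bp. This share was not computed by chromosome, so no difference between chromosomes or groups is read from these small counts.

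Not being named does not show that a gene lacked a peak nearby. The neighbour columns gave both neighbours within 20000 bp for 121 peaks, among them those on FEZ and on SHA1, while 316 peaks had a listed neighbour farther off. For ANAC019 the listed neighbours were AT1G40123, at 4484188 bp, and AT1G61795, at 3121696 bp. In RefSeq gene order, the protein-coding genes on either side of ANAC019 are NAM (AT1G52880), itself a NAC gene, and AT1G52900. The peak on ANAC019 thus lay on a gene with another NAC gene beside it, as 20 of the 101 NAC genes do, and its distance to NAM is not in the list. For NTL8 the listed neighbours, AGP17 and AT2G35050, were at 1836167 and 3087847 bp, whereas RefSeq order gives AT2G27290 and AT2G27310. For ANAC102, RefSeq order gives SHA1 on one side, as the list does, and MUM2 (AT5G63800), a beta-galactosidase gene of seed mucilage, on the other.

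No other listed peak lay closer than 57837 bp to any of the 4. The nearest listed peaks to that on ANAC019 were 727075 bp before it, on the pseudogene AT1G51175 (232 reads), and 167099 bp after it, on DJ1B (AT1G53280, 196 reads). For FEZ they were 428846 bp away, on MYB116 (152 reads), and 78007 bp away, on the homeobox gene ATHB54 (230 reads). For NTL8 they were 259402 bp away, on AT2G26780 (141 reads), and 628698 bp away, with no named gene (138 reads). The peak beside ANAC102 had the closest ones. They were 70886 bp before it, on AT5G63580 (167 reads, named FLS2 in RefSeq), and 57837 bp after it, on AT5G63930 (257 reads). The median gap between neighbouring peaks of the list was 167726 bp, with quartiles at 58842 and 374108 bp. All 4 peaks thus had more reads than the nearest listed peak on either side, except for that beside ANAC102, which had fewer than both.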

How the data were processed

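The deposited list held 439 peaks made by the authors on the TAIR 9 build, per the submitters' processing notes. How the wild-type library was used, the aligner and the peak caller are not given in these sources. The authors deposited a raw count of reads for each peak, in all and by strand, with no scaling to depth or length. Also deposited were an FDR in percent, a p-value, a strand difference as a fraction of the reads, and a length, another number, equal to end minus start in all 439 peaks. Coordinates are those of the list, counted from 1.

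Annotation text split over 177 further lines was joined. Names were matched by locus, symbol or synonym on the peak's chromosome to RefSeq genes (GCF_000001735.4 TAIR10.1), used for names, biotypes and gene order, with 5 shared names settled by the loci of neighbouring peaks. NAC genes were those with a numbered NAC symbol or synonym (100) plus the listed NAC groups. Overlap with a protein-coding gene excluded transposable element genes. Named were the 4 genes, ATAF1, genes at or beside their peaks and peaks of like reads, length or score. The genes and lists were chosen with earlier results of these data known. No test was made: there was 1 library per genotype, and the rule used the list. Wilson 95% intervals were checked on simulated counts. Promoter motif counts and protein identities had been planned and were not run, since no sequence was at hand. Tables were computed in Python 3.11.15 with SciPy 1.17.1 and NumPy 2.4.6, and figures drawn in Matplotlib 3.10.9.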

Additional observations from a re-analysis of the deposited data

How the results depend on the processing

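Ranks were also taken as a percent of the peaks ordered. In the order by p-value and then reads, this was 0.683% for ANAC019, 5.69% for FEZ, 98.6% for NTL8 and 60.1% for the peak beside ANAC102. Tied peaks share the best rank, so these percents can lie below the share of peaks with as many reads. Ordered by FDR, the percents were 3.87% for ANAC019, 9.79% for FEZ and 62.4% for NTL8. Ordered by reads alone, they were 3.64% for ANAC019, 10.02% for FEZ, 23.5% for NTL8 and 69.7% for the peak beside ANAC102. Ordered by reads per bp, they were 5.92% for ANAC019, 18.7% for FEZ and 67.4% for the peak beside ANAC102. The cause was not tested. The other 6 rank alternatives, all 4 on protein-coding peaks alone among them, stayed within the Wilson interval of the first value. That interval served only as a tolerance, since ranks over a whole list are not independent draws. The protein-coding peaks are also part of the same list. The count of overlapped NAC genes was 3. It was 4 with neighbours within 1000 or 3000 bp or at any distance, the last chosen after seeing the data, and 2 with peaks of an FDR under 1% or with p-values of at most 0.05, which left out NTL8. SNAC-A genes went to 2 with neighbours at any of these distances, where ANAC102 joins, and membrane-bound NAC genes went to 0 under either limit, since the NTL8 peak is left out by construction. No paired analysis was possible because the design held a single library for each genotype and no test. Planned settings on motifs and on protein identity were not run. Depth per library is unknown, so neither a fold over wild-type plants nor a detection limit could be given for any NAC gene.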

Other observations

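Peaks that shared the deposited FDR of a NAC peak did not always share its reads. The 4 others with the FDR of the peak beside ANAC102 (1.20%) held 152 reads on AT1G10657, MYB116 and AT1G62301, and 331 reads on AT2G25970. Among the 8 others with the FDR of NTL8 (1.24%), the peak on AT2G26780, which is also the nearest listed peak before NTL8, held 141 reads, 38 forward and 103 reverse, and that on AT5G46820 held 212. These peaks were chosen after their values were seen.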
